A study of Mus musculus with 2 samples.

Results

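The transcripts of 10 enteroendocrine genes were measured by mRNA-seq in mouse intestinal organoids (mIOs): the granins Chga and Chgb and the peptide hormone genes Cck, Sct, Gip, Gcg, Sst, Nts, Ghrl and Tac1. The genes were chosen by name as peptides and granins of enteroendocrine cells, with earlier results of these data known. All 10 named genes were found among the 19294 genes of the count table. Both cultures came from intestinal crypts of Lgr5-EGFP-IRES-creERT2 mice, and the paper's methods describe crypt isolation from the jejunum. These mice express EGFP and a tamoxifen-dependent Cre from the locus of the stem cell marker Lgr5. Both cultures were grown in Matrigel with EGF, Noggin and R-spondin. The first culture was the control and the other was treated with dextran sulfate sodium (DSS), a polysaccharide used to model gut inflammation and epithelial injury, with both labelled day 4. The age of the animals, the DSS concentration used for sequencing and the number of organoids or animals behind each library are not given in the sources used here. There was 1 library per condition, so no sequencing difference below has a replicate check, an SD or a p-value. The paper also measured Chga, Vil1, Muc2 and Lgr5 by RT-PCR. Whether the same cultures were used is not stated.

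Enteroendocrine cells are scattered hormone-secreting cells of the gut epithelium that arise from the same crypt stem cells as enterocytes, goblet cells and tuft cells. They sense nutrients and other luminal stimuli, store peptide hormones with granins in dense-core granules, and release them to the blood, to nerves and to neighboring cells. Each cell makes a restricted and partly overlapping set of hormones, and the mixture differs along the gut.

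All 10 genes were higher in the DSS library. Their log2 ratios of scaled counts, DSS over control, ranged from 1.999 for Tac1 to 3.67 for Nts, which is 4.00-fold to 12.7-fold, with a median of 2.75. Together they made up 0.0963% of the control library (63044 of 65493032 counts) and 0.423% of the DSS library (252920 of 59746968 counts), a 5.25-fold difference after scaling (log2 ratio 2.39, 95% interval 2.38 to 2.41). All 10 of 10 were at or above a log2 ratio of 1, where 19.3% of the 17235 genes with at least 10 counts in a library were found, and 9 of 10 were at or above 2, where 7.87% of those genes were found. Another 20.2% of the genes were at or below -1, and no member was. In bulk RNA, more cells of a type, fewer cells of other types and more RNA per cell cannot be told apart.

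The intervals here are exact Clopper-Pearson intervals and cover counting error only, not the variation between cultures or library preparations. Levels are given as CPM, that is counts scaled by library size, after trimmed mean of M-values (TMM) scaling. Under TMM the median log2 ratio of all 17235 genes was -0.06, and of the genes past 2 or -2, 54.6% were higher in the DSS library. Scaling by total counts moved every log2 ratio by -0.26, which put the median of all genes at -0.31, the members' median at 2.50 and the share of higher genes at 41.7%. With total counts 8 of 10 members were at or above 2, since Cck came to 1.97 and Tac1 to 1.74.

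**Figure D1:**
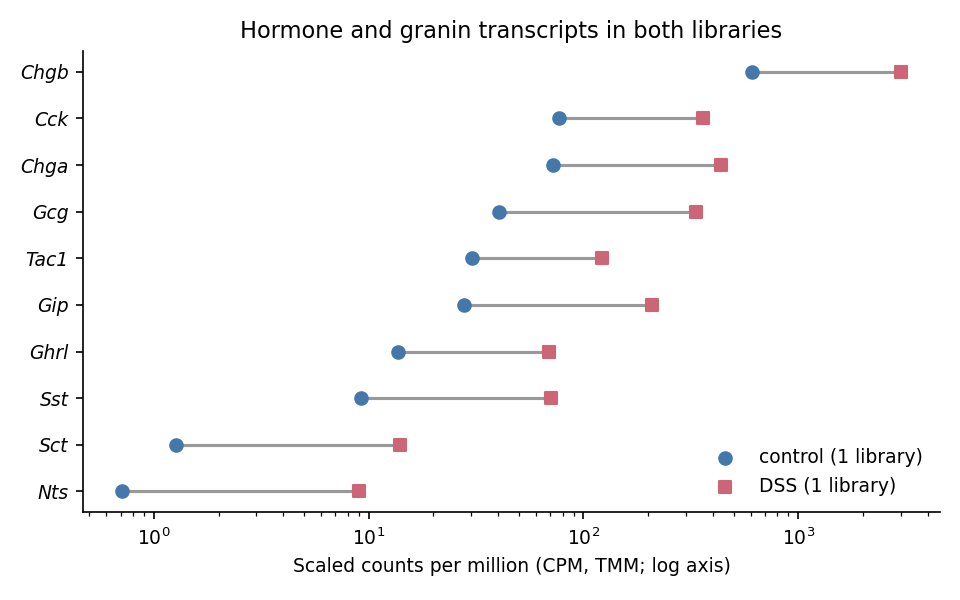
Levels of the 10 genes in the control library (circles) and the DSS library (squares), in TMM-scaled CPM on a log axis, with genes ordered by their control level. Every square lies to the right of its circle, from 0.713 to 9.05 CPM for Nts up to 608 to 3003 CPM for Chgb.

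The granins are acidic proteins of the secretory granule and are general markers of endocrine cells. Chgb (chromogranin B) had 43545 counts in the control library and 164158 in the DSS library, the most of the 10 genes in both. Its level was 608 CPM in control and 3003 CPM in DSS, a log2 ratio of 2.30 (2.29 to 2.32). Chga (chromogranin A), a widely used marker of enteroendocrine cells, had 5141 counts in control and 23825 in DSS. Its level was 71.8 CPM in control and 436 CPM in DSS, a log2 ratio of 2.60 (2.56 to 2.64). By RT-PCR the paper instead reported a similar level of Chga in DSS-treated mIOs, and the reason for the difference was not tested. Both granins were higher in the DSS library. The log2 ratio of Chga exceeded that of Chgb by 0.30 (0.25 to 0.34), a difference beyond counting error that no scaling can move. The library held 8.47 Chgb counts per Chga count in control and 6.89 in DSS.

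Gcg and Gip encode the precursors of hormones that strengthen insulin release after a meal. Gcg, whose precursor yields the glucagon-like peptides in the L cells of the gut, had 2903 counts in control and 18298 in DSS. This was 40.6 CPM against 335 CPM, a log2 ratio of 3.04 (2.99 to 3.10). Gip (glucose-dependent insulinotropic polypeptide), the hormone of K cells, had 1985 counts in control and 11351 in DSS, or 27.7 CPM against 208 CPM, with a log2 ratio of 2.90 (2.84 to 2.97). Both incretin genes were higher in DSS by more than the granins, Gcg by 0.44 (0.37 to 0.52) and Gip by 0.30 (0.22 to 0.39) over Chga on the log2 scale. Gcg also exceeded Gip by 0.14 (0.05 to 0.23).

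Cck and Sct encode the hormones that act on the gallbladder and the pancreas during digestion. Cck (cholecystokinin), which triggers gallbladder contraction and pancreatic enzyme release, had 5517 counts in control and 19756 in DSS, more than any other peptide hormone gene in either library. Its level was 77.1 CPM in control and 361 CPM in DSS, with a log2 ratio of 2.23 (2.19 to 2.27). Sct (secretin), which stimulates bicarbonate secretion, had only 91 counts in control and 766 in DSS. It went from 1.27 CPM to 14.0 CPM, a log2 ratio of 3.46 (3.15 to 3.79). The abundant Cck thus differed less between the libraries than Chga, by 0.37 (0.31 to 0.43), and the scarce Sct differed more, by 0.86 (0.54 to 1.19).

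Sst, Ghrl, Nts and Tac1 encode peptides of further enteroendocrine cells. Sst (somatostatin), the inhibitory peptide of D cells, had 656 counts in control and 3864 in DSS, or 9.17 CPM against 70.7 CPM, a log2 ratio of 2.95 (2.83 to 3.07). Ghrl (ghrelin), the hunger hormone of X cells, had 980 counts in control and 3766 in DSS, or 13.7 CPM against 68.9 CPM, a log2 ratio of 2.33 (2.23 to 2.43). The order of these neighbors by counts was Ghrl over Sst in control and Sst over Ghrl in DSS.

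Nts (neurotensin), a peptide of the N cells of the small intestine that slows gut motility and promotes fat absorption, was the scarcest of the 10 genes. It had 51 counts in control and 495 in DSS, or 0.713 CPM against 9.05 CPM, and the highest log2 ratio of the 10, 3.67 (3.25 to 4.11). Tac1, the precursor of substance P, is made by serotonin-secreting enterochromaffin cells and also by enteric neurons. It had 2175 counts in control and 6641 in DSS, or 30.4 CPM against 121 CPM, and the lowest log2 ratio of the 10, 1.999 (1.93 to 2.07). It lay just below the line of 2, at rank 1358 of the 17235 genes, and its nearest member above was Cck at rank 1113. Nts stood at rank 282.

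**Figure D2:**
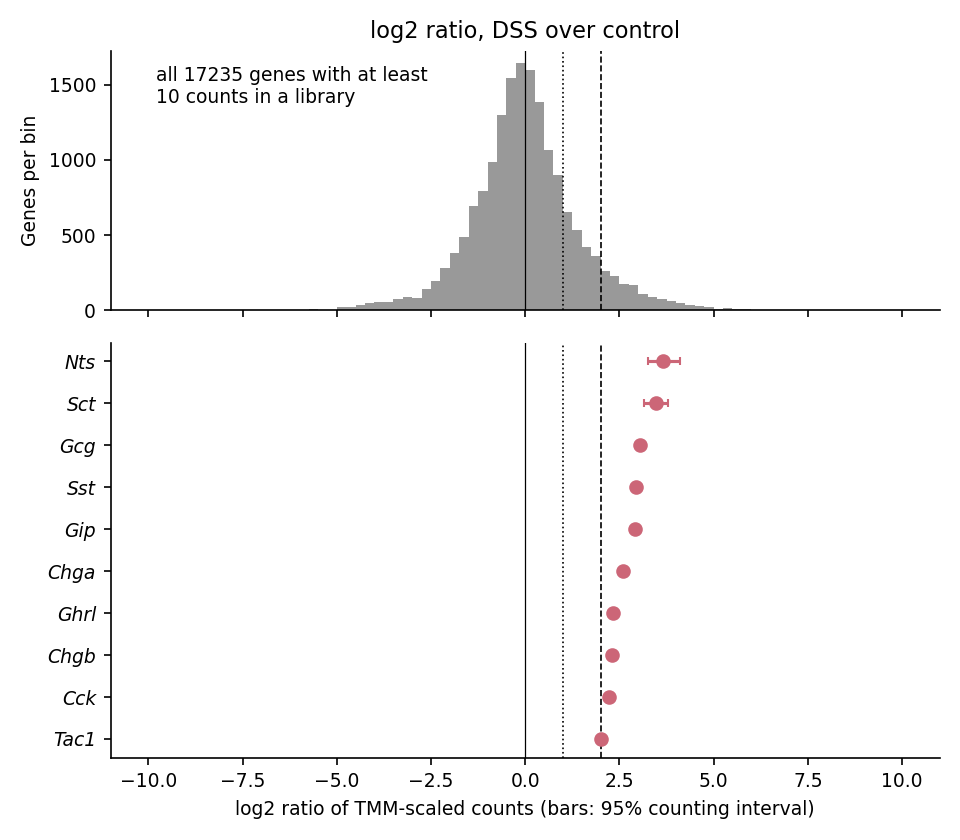
Upper panel, histogram of the log2 ratio of TMM-scaled counts, DSS over control, for 17235 genes with at least 10 counts in a library. Lower panel, the 10 genes with their 95% counting intervals, ordered by ratio from Tac1 at 1.999 to Nts at 3.67, and the dotted and dashed lines mark log2 ratios of 1 and 2.

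Among the 45 pairs of the 10 genes, the conditional exact 95% interval of the difference in log2 ratio left out 0 in 40 pairs. At these depths that is common to most genes. A normal interval of the same difference left out 0 in 78.0% of all pairs of the 17235 genes, and in 91.6% of the pairs of the 11101 genes whose counts summed to 546 or more over the libraries, the sum of the scarcest member. The 40 of 45 pairs were near that share, so the count is not particular to the members. The 5 pairs whose intervals held 0 were Chgb with Ghrl (difference -0.03, -0.13 to 0.08), Cck with Ghrl (-0.10, -0.21 to 0.01), Sct with Nts (-0.21, -0.76 to 0.33), Gip with Sst (-0.04, -0.18 to 0.10) and Gcg with Sst (0.10, -0.04 to 0.23). These differences come from counts within a library, so they do not depend on the scaling. The intervals were not adjusted for the number of pairs. By their values Nts and Sct formed the upper end, Gcg, Sst and Gip came next, Chga followed, and Ghrl, Chgb, Cck and Tac1 formed the lower end. The genes with the fewest control counts, Nts and Sct, had the highest ratios, while Chgb, with the most, was the third from the lowest.

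The make-up of the hormone counts was described by shares. The counts of the 8 peptide hormone genes summed to 14358 in control and 64937 in DSS, a log2 ratio of 2.57 (2.54 to 2.59). Cck held 38.4% of them in control (exact binomial 95% interval 37.6 to 39.2) and 30.4% in DSS (30.1 to 30.8). Gcg held 20.2% in control (19.6 to 20.9) and 28.2% in DSS (27.8 to 28.5), which brought it close to Cck. Gip went from 13.8% (13.3 to 14.4) to 17.5% (17.2 to 17.8). Tac1 made up 15.1% in control (14.6 to 15.7) and 10.2% in DSS (9.99 to 10.5), so that it ranked above Gip in control and below it in DSS.

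The other 4 hormone genes held small shares. Ghrl had 6.83% of the hormone counts in control and 5.80% in DSS, and Sst 4.57% in control and 5.95% in DSS. Sct had 0.634% (0.511 to 0.778) in control and 1.18% (1.10 to 1.27) in DSS, and Nts 0.355% (0.265 to 0.467) in control and 0.762% (0.697 to 0.832) in DSS. For each of the 8 genes the intervals of the shares in the control and DSS libraries did not overlap. The intervals of the share of the whole library did not overlap for 75.6% of the 17235 genes and for 89.6% of the 11101 genes with at least 546 counts in sum, so intervals that do not overlap are usual at these depths. Counted with the granins, Chgb alone held 69.1% of all member counts in control (68.7 to 69.4) and 64.9% in DSS (64.7 to 65.1).

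**Figure D3:**
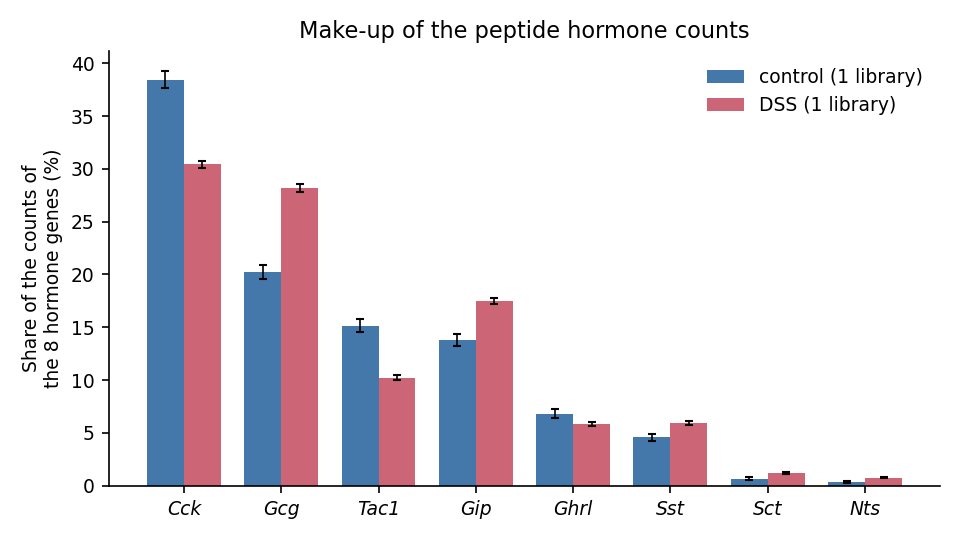
Share of each gene in the counts of the 8 peptide hormone genes, in percent, for the control and DSS libraries, with exact binomial 95% intervals (counting error only). Cck and Tac1 held smaller shares in the DSS library and Gcg and Gip larger ones.

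Counts grow with transcript length, so the levels of different genes were also compared as CPM per kilobase, using the mean length of the GENCODE vM21 transcripts of each gene. On this scale Chgb led with 222 CPM per kilobase in control and 1096 in DSS, followed by Cck with 103 in control and 485 in DSS. Gip came next in both libraries, at 42.5 in control and 318 in DSS. Chga, Gcg, Ghrl and Tac1 followed closely in control, between 31.6 and 38.1 CPM per kilobase. In DSS the order of these 4 was Gcg at 308, Chga at 231, Ghrl at 171 and Tac1 at 126. Sst, Sct and Nts were the lowest per length in both libraries, with Sst at 12.7 in control and 98.0 in DSS, Sct at 2.47 in control and 27.2 in DSS and Nts at 0.571 in control and 7.25 in DSS. The only change in order between the libraries was Gcg passing Chga. Ghrl is the only member with annotated genes on the opposite strand over its exons, Gm26982 and Gm44033, neither of which was listed in the count table.

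Because the 10 genes were higher together, the bases before their starts were read from RefSeq (GRCm38.p6), which had 13 start windows for the 10 genes, 4 of them for Ghrl. The motifs were chosen after the sequences had been seen, so their counts are descriptions. The cAMP response element, bound by CREB family factors in many neuroendocrine genes, was searched on both strands in the 250 bases before each start as the full palindrome TGACGTCA and as its core TGACG. The full element contains the core on each strand. The windows of Chga and Cck are shown whole, and for Chgb, Sst, Tac1 and Nts the 30 bases around a core are shown, since these 6 are the members with a match. Sequences run 5′ to 3′ along the gene's strand, and capitals mark the core or full element (CGTCA is the core read on the other strand).
Chga, chr12:102554691-102554940, plus strand: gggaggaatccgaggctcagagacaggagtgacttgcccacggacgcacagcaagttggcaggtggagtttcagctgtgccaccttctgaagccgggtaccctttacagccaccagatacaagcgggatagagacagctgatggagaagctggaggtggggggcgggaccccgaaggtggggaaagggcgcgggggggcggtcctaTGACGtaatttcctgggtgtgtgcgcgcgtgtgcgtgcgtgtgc
Cck, chr9:121495695-121495944, minus strand: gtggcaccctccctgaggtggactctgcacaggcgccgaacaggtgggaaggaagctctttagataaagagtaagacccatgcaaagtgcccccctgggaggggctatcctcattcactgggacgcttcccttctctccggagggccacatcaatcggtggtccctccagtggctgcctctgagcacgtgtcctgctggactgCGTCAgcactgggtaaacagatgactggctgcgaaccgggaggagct
Chgb, chr2:132781558-132781587, plus strand: ggggctgctccgTGACGTCAgggctgagcg
Sst, chr16:23890875-23890904, minus strand: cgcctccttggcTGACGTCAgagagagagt
Tac1, chr6:7555006-7555035, plus strand: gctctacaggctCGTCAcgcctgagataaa
Nts, chr10:102490567-102490596, minus strand: attagggaagatCGTCActttccatcaagg

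The full element was found in Chgb, from -72 to -65 before the start, and in Sst, from -48 to -41, that is in 2 of 10 members. It was held by 1.77% of all 27025 genes with a window and by 2.75% of the 13002 of them in the count table, counting a gene with several windows once, as for the members. The core was found in 6 of 10 members, against 19.8% of all genes and 27.9% of those in the table. In 5 of 10 members, Chga, Chgb, Cck, Sst and Tac1, a core lay within 75 bases of the start. Counted by windows and not by genes, 8.58% of all 32851 windows and 12.3% of the 16553 windows of genes in the table had one there. A core anywhere in the window was held by 17.8% and 24.2% of these windows, in the same order. Most windows thus had no core, and whether the cores of the members lie nearer the start than other cores was not tested. Chga had the core from -44, Cck from -47 and Tac1 from -43, and Tac1 had another from -197. In Nts it began at -166. In GENCODE vM21 exons of Chgb, Nts, Sst, Tac1 and Ghrl reach upstream of a RefSeq start, so these distances depend on the annotation. The exon of Chgb covers its whole window. The full elements of Chgb and Sst and the core of Tac1 from -43 thus lie inside annotated exons of their own genes.

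The remaining members were described by other motifs. CAGCTG, one form of the E-box bound by basic helix-loop-helix factors such as Neurog3 and Neurod1, was found in Chga, Sct, Gip, Nts and Ghrl, that is in 5 of 10 members, against 14.7% of all genes and 14.8% of those in the table. The TATA box TATAAA, searched on the gene's strand, was found in Sct from -28 and in Gcg from -24, against 8.94% of all genes and 5.65% of those in the table. A match is not a binding site. The 2 members with the full element had log2 ratios of 2.30 (Chgb) and 2.95 (Sst), and those with no core, Sct, Gip, Gcg and Ghrl, ranged from 2.33 to 3.46. The members with and without a core thus overlapped in their ratios.

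**Figure D4:**
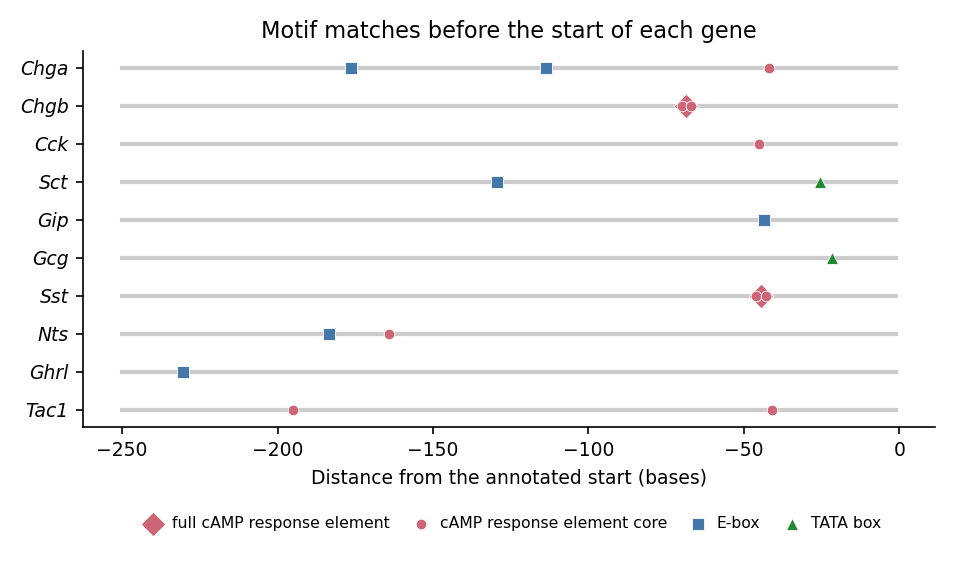
Positions of motif matches in the 250 bases before the annotated RefSeq start of each gene, in bases from the start, with diamonds for the full cAMP response element, circles for its core, squares for the E-box and triangles for the TATA box. For Ghrl, which has 4 start windows, the match lies in 1 of them, and cores of Chga, Chgb, Cck, Sst and Tac1 lie within 75 bases of the start.

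The other genes of enteroendocrine cells were counted in lists. Beside them, 19.3% of all 17235 genes were at or above 1, 7.87% at or above 2 and 20.2% at or below -1. Of 14 other gut peptide genes, 6 were in the table and 5 had at least 10 counts in a library, and all 5 were at or above a log2 ratio of 1 (median 2.65), or 4 of 5 with total counts. Gast passed the minimum of 10 counts only through the DSS library, and the 4 others had a median of 2.11. Gast (gastrin) had 8 counts in control and 126 in DSS (log2 ratio 4.37, 3.34 to 5.61). Ucn3 (urocortin 3) had 55 and 264 counts (2.65, 2.23 to 3.10) and Iapp (amylin) 10 and 68 counts (3.15, 2.19 to 4.28). These were scarce transcripts, with a summed level of 1.97 CPM in control and 10.8 CPM in DSS for the whole list. Insl5, Gal, Vip, Penk, Pdyn, Nmu, Grp and Ppy were not in the table, which lists no gene with 0 counts in a library, so no direction is known for them.

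The granule itself was represented by 14 other granins and granule proteins, of which 11 were at or above 1, 6 at or above 2 and none at or below -1 (median 1.80). Ptprn, a membrane protein of dense-core granules, had 176 counts in control and 1421 in DSS (log2 ratio 3.40, 3.17 to 3.64). Resp18 had 124 and 832 counts (3.13, 2.86 to 3.42) and Vgf, a granin-like precursor, 142 and 837 counts (2.95, 2.69 to 3.21). The summed level of the list was 76.8 CPM in control and 306 CPM in DSS.

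Of the 6 prohormone processing enzymes in the table, 3 were at or above 2 and none at or below -1 (median 1.42). These were Pcsk1, the convertase that cleaves prohormones in the granule (1748 counts in control and 7927 in DSS, log2 ratio 2.57, 2.49 to 2.65), the amidating enzyme Pam (1425 and 4510 counts, 2.05, 1.96 to 2.14) and carboxypeptidase E, Cpe (2492 and 7695 counts, 2.02, 1.95 to 2.08). Mboat4, the acyltransferase that modifies ghrelin, had 46 counts in control and 32 in DSS (-0.14, -0.83 to 0.55). With total counts 1 of the 6 enzymes was at or above 2 instead of 3. Pcsk2 and Qpct were not in the table.

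Serotonin is the amine of enterochromaffin cells, which also make Tac1. Of 7 genes of serotonin synthesis, amine storage, reuptake and breakdown, 6 were at or above 1 and 4 at or above 2 (median 2.06). With total counts 2 of 7 were at or above 2. Maoa, which breaks serotonin down, was among the 4 and was itself the median (log2 ratio 2.06, 2.04 to 2.08). It had 26916 counts in control and 85582 in DSS, most of the 34888 and 105399 counts of the list. Tph1, the rate-limiting enzyme of serotonin synthesis in the gut, had 1309 counts in control and 5085 in DSS (log2 ratio 2.35, 2.26 to 2.44). Ddc, which completes the synthesis, had 2338 and 7820 counts (2.13, 2.06 to 2.20) and the vesicular transporter Slc18a2 had 37 and 250 counts (3.14, 2.64 to 3.68). Slc6a4, the serotonin reuptake transporter, which enterocytes also make, had 1530 counts in control and 939 in DSS (-0.32, -0.43 to -0.20).

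Of 21 transcription factors of enteroendocrine development and identity, 14 were above 0 and 7 below. At or above 1 there were 12, at or above 2 there were 3 and at or below -1 there were 2 (median 1.14). Of all 17235 genes 19.3%, 7.87% and 20.2% were past these lines in the same order. With total counts 10 of the 21 were at or above 1 and 2 at or above 2. Neurog3, the factor that starts the enteroendocrine program in progenitors, had 692 counts in control and 60 in DSS, a log2 ratio of -3.14 (-3.54 to -2.76). The other factor at or below -1 was Sox4, which also acts in early progenitors, with 6870 counts in control and 1158 in DSS (-2.18, -2.27 to -2.09). It was named after its value was seen. Lmx1a, a factor of enterochromaffin cells, had 192 and 735 counts (2.33, 2.09 to 2.56) and Etv1 had 240 and 917 counts (2.32, 2.12 to 2.53). The 10 hormone and granin genes and the progenitor factor Neurog3 therefore lay on opposite sides of the lines of 2 and -2, except Tac1, which lay at the line.

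Of 16 nutrient and stimulus sensors in the table, 10 were at or above 1, 6 at or above 2 and 1 at or below -1 (median 1.72). Casr, Cnr1 and Gpbar1 passed the minimum of 10 counts only through the DSS library and so had to be higher there. Of the 13 sensors with at least 10 counts in both libraries, 7 were at or above 1 and 3 at or above 2 (median 1.40). Trpa1, an irritant-gated channel of enterochromaffin cells, had 132 counts in control and 2212 in DSS (log2 ratio 4.46, 4.20 to 4.72). The calcium-sensing receptor Casr had 9 and 74 counts (3.43, 2.43 to 4.61), and Abcc8, the sulfonylurea receptor, 154 and 628 counts (2.42, 2.16 to 2.68). The gene at or below -1 was Ffar4, a receptor for long-chain fatty acids, with 310 counts in control and 87 in DSS (-1.44, -1.80 to -1.10). It too was named after its value was seen.

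Receptors for the member hormones were mostly scarce or not listed. Of 19 receptor genes 7 were in the table, and 4 of them were at or above 1 (median 1.58). Sstr3 passed the minimum of 10 counts only through the DSS library, and of the other 6, 3 were at or above 1 (median 0.90). The somatostatin receptors Sstr5 (41 counts in control and 127 in DSS, log2 ratio 2.02, 1.501 to 2.56), Sstr1 (67 and 199 counts, 1.96, 1.55 to 2.38) and Sstr2 (61 and 149 counts, 1.68, 1.24 to 2.13) were higher in DSS. Gipr (133 counts in control and 111 in DSS, 0.13, -0.25 to 0.50) and Gcgr (88 and 52 counts, -0.37, -0.89 to 0.14) had intervals that held 0. Sort1 had 7031 and 5585 counts (0.06, 0.01 to 0.11), most of the 7428 and 6239 counts of the list. Gipr, Gcgr and Sort1 were named after their values were seen. The receptors of cholecystokinin, secretin, the glucagon-like peptides, ghrelin and substance P, the neurotensin receptors Ntsr1 and Ntsr2, and Sstr4 were not in the table.

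**Figure D5:**
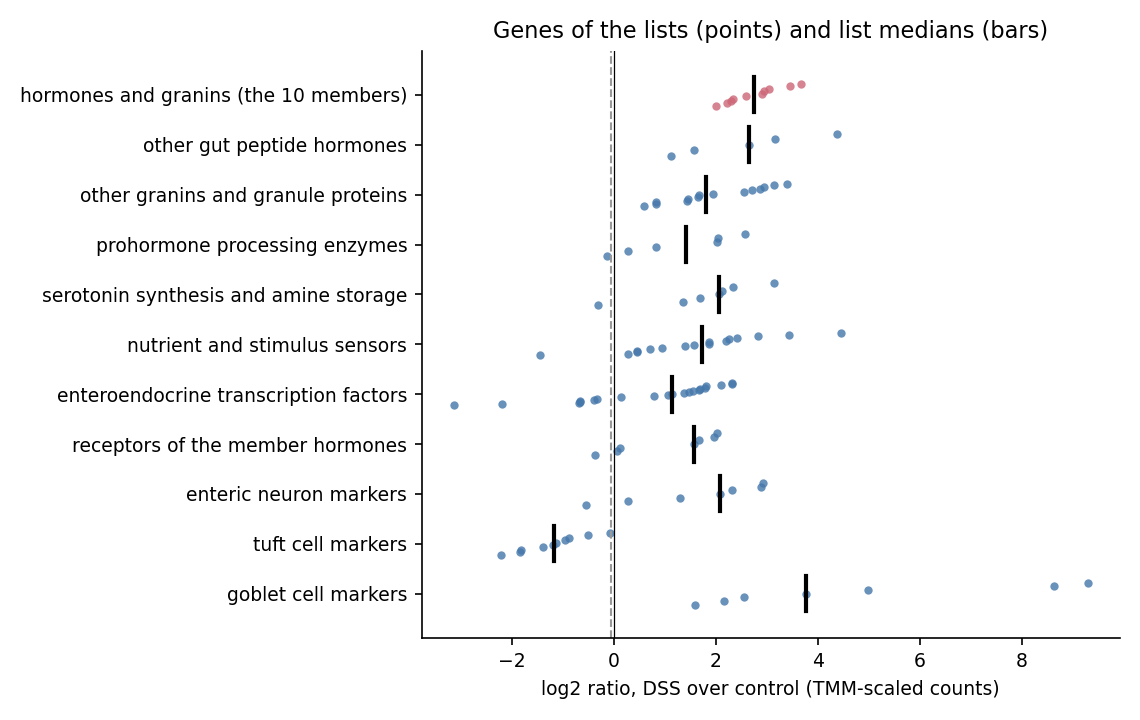
The log2 ratio of TMM-scaled counts, DSS over control, for each gene with at least 10 counts in a library (points) in 11 lists, with the list median as a black bar and the median of all genes, -0.06, as a gray dashed line. The median of the 10 members was 2.75 and that of the transcription factors 1.14, with Neurog3 and Sox4 far to the left at -3.14 and -2.18.

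Markers of other cell types that could carry some of these transcripts were read beside the members. Of 16 enteric neuron markers 7 were in the table, with a summed level of 18.5 CPM in control and 90.8 CPM in DSS, and 5 of the 7 were at or above 1 (median 2.09). Elavl4, with 4 counts in control and 13 in DSS, passed the minimum only through the DSS library, and of the other 6, 4 were at or above 1 (median 1.82). Ret had 584 counts in control and 3306 in DSS (log2 ratio 2.89), Snap25, an exocytosis protein that endocrine cells also make, 65 and 375 counts (2.92), and Nefl 54 and 207 counts (2.33). The neuronal tubulin Tubb3 had 73 counts in control and 68 in DSS (0.29, -0.21 to 0.78) and the neuronal RNA-binding protein gene Elavl3 had 21 and 11 counts (-0.54, -1.74 to 0.57). The neuronal genes Phox2a, Prph, Stmn2, Uchl1, Chat, Nos1, Hand2 and Gap43 were not in the table. For glia, S100b had 116 counts in control and 488 in DSS, and Sox10 and Gfap were not in the table. Tac1 and Sst are also made by enteric neurons, and the part of such cells in their values was not tested.

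Pancreatic islets share some of these hormones, but Ins1, Ins2, G6pc2 and Ppy were not in the table. Of the 2 islet genes that were, Slc2a2, which enterocytes also make, had 3626 counts in control and 21815 in DSS (log2 ratio 2.98). Of 11 immune and mesenchymal markers 3 were listed, with a summed level of 5.69 CPM in control and 12.1 CPM in DSS. Itgam had 375 and 631 counts (1.14), most of the 407 and 662 counts of the list. Col1a1 had 29 and 24 counts (0.12, -0.73 to 0.95). Ptprc, Cd3e, Adgre1, Col1a2, Col3a1, Dcn and Lum were not in the table.

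The label gives intestinal stem cells as the cell type. Epithelial markers were abundant in both libraries, with Epcam at 941 CPM in control and 960 CPM in DSS, and the median log2 ratio of 9 epithelial markers was 0.04, which turned to -0.22 with total counts. Among them the differentiation keratin Krt20 was at 3.99, Vil1 at 1.25 and Cdx2 at -1.35. The stem cell marker Lgr5 had 18849 counts in control and 1048 in DSS (log2 ratio -3.78, -3.87 to -3.69). Other secretory cells differed in both directions. All 7 goblet cell markers in the table were at or above 1 (median 3.77), including Clca1 (48 counts in control and 23033 in DSS, log2 ratio 9.29), Zg16 (8.64) and Muc2 (4.98). By RT-PCR the paper reported lower Lgr5 in DSS-treated mIOs but similar Vil1 and Muc2, unlike the higher Vil1 and Muc2 counts here. Of 10 tuft cell markers in the table none was at or above 1 and 6 were at or below -1 (median -1.16), or 3 of the 7 with at least 10 counts in both libraries (median -0.95), with Pou2f3 at -2.20, Plcg2 at -1.13 and Ltc4s at -0.95. Of all 17235 genes 19.3% were at or above 1 and 20.2% at or below -1. The hormone and granin genes thus lay between goblet and tuft cell markers in their medians.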

How the data were processed

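Per gene, unnormalized read counts were deposited for 1 control and 1 DSS library. The single-library files, named as FPKM, held the same counts for all 19294 genes. HISAT2 and StringTie appear in the submitters' processing notes without versions. The genome build and the use of strand in counting are not given in the sources used here. Totals were 65493032 (control) and 59746968 (DSS) counts, and the lowest count was 1.

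Counts were scaled with TMM factors (1.09 control, 0.915 DSS) in edgeR 4.0.16 under R 4.3.3. Log2 ratios carry Clopper-Pearson 95% intervals, and differences between members carry conditional exact intervals (scipy 1.17.1). Genes with at least 10 counts in a library (17235) were counted at log2 ratios of 1, 2 and -1. No test was possible. The computation was tested on simulated counts. Alternatives were upper quartile factors, DESeq2 1.42.0 size factors, scaling by totals, 2 added counts, thinning, other filters (for the lists, 10 counts in both libraries was added after the data were seen), the mean, and the sum without Chgb.

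The members and the 15 other lists were chosen with earlier results of these data known. Named genes were all members and in each list the 3 genes farthest from 0 in log2 ratio with 50 counts or more in a library, and markers of other cell types. Mboat4, Maoa, Slc6a4, Sox4, Ffar4, Gipr, Gcgr, Sort1, Tubb3, Elavl3, Elavl4, Sstr3, Cnr1, Gpbar1, Col1a1, Dpp4 and Lgr5 were added after their values were seen. A few markers of other cell types are not reported here. Promoter windows came from RefSeq (GRCm38.p6), and transcript lengths from GENCODE vM21. Other tools were Python 3.11.15, numpy 2.4.6, pandas 2.3.3 and matplotlib 3.10.9.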

Additional observations from a re-analysis of the deposited data

How the results depend on the processing

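All 50 values of the 10 genes under 5 alternatives (upper quartile factors, DESeq2 size factors, total counts, 2 added counts and thinning of the deeper library) were above 0, from 1.74 (Tac1, total counts) to 3.76 (Nts, upper quartile factors). Of these, 36 stayed within the counting interval of the value reported, and the 14 outside it came from total counts or upper quartile factors. All 10 genes were at or above 1 under every alternative run. At or above 2 there were 8 with total counts, 10 with DESeq2 size factors, upper quartile factors or thinning, and 9 with 2 added counts or with either filter. The median of the members was 2.50 with total counts and 2.84 with upper quartile factors, and the log2 ratio of the summed counts was 2.14 and 2.48 in the same order and 2.58 without Chgb. The mean of the members was 2.75.

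No paired analysis was possible because each condition has 1 library. No replicate was left out for the same reason, and differences between cultures, wells or library preparations cannot be told apart from the treatment. The counting intervals are narrow for the 8 genes with at least 656 counts in each library and wider for Sct and Nts, with 91 and 51 control counts. Genes with 0 counts in a library are missing from the table.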

Other observations

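Peptidases that inactivate gut hormones at the cell surface were counted as a separate list. All 6 were in the table, 5 were at or above a log2 ratio of 1 and 3 at or above 2 (median 2.72), where 4 were at or above 1 with total counts. Mme (neprilysin), which cleaves substance P and other small peptides, had 2307 counts in control and 31149 in DSS (log2 ratio 4.14, 4.08 to 4.21). The angiotensin-cleaving enzymes Enpep and Ace had 4007 and 37374 counts (3.61, 3.56 to 3.66) and 2482 and 21070 counts (3.47, 3.41 to 3.53). Dpp4, which cuts the incretin peptides and was named after its value was seen, had 13651 counts in control and 40788 in DSS (1.97, 1.94 to 1.996). These enzymes are also brush border enzymes of enterocytes, and the part of enterocyte content in their values was not tested.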
